A study of Mus musculus with 9 samples.

Results

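The secreted inhibitors, the receptors and a feedback target of Wnt signaling were followed in mouse ventricles after 4 d of adrenergic stimulation. The set held 10 genes: the Wnt antagonists Sfrp1, Sfrp2, Sfrp5, Frzb, Wif1 and Dkk3, the ligand Wnt5a, the receptors Fzd1 and Fzd2, and the target Axin2. They were chosen by gene symbol, with earlier results of these data known, from the 15149 genes present in both deposited count tables. The transcript of highest count stood for each gene. All 10 passed the filter on low counts, as did 14426 genes in all. Bulk mRNA of right plus left ventricles was sequenced from 9 wild-type C57Bl6N mice of either sex, aged 2 to 3 months per the labels, with 3 hearts per group and 1 heart per library. Ctr hearts (2 females, 1 male) came from mice without a pump. ISO hearts (1 female, 2 males) had received the β-adrenoceptor agonist isoprenaline at 30 mg/kg/day from an osmotic minipump for 96 h. ISO/PE hearts (1 female, 2 males) had received the same isoprenaline dose together with the α1-adrenoceptor agonist phenylephrine at 30 mg/kg/day. ISO vs. Ctr and ISO/PE vs. Ctr therefore span drug, pump implantation and 4 d of time, which cannot be told apart, and both share the same 3 Ctr hearts, whereas ISO/PE vs. ISO differs by design in phenylephrine alone. Both comparisons with Ctr also differ in the sex makeup of the groups, and the main fit had no term for sex.

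Total counts lay between 10172248 and 14477054 per heart. The labelled tissue was checked against its markers: the summed level of 10 cardiomyocyte genes was 62433 to 67547 CPM (read counts scaled to a common library total) in Ctr, 51150 to 54979 in ISO and 37060 to 49395 in ISO/PE hearts. The genes were Actc1, Tnnt2, Tnni3, Tnnc1, Myl2, Myl3, Actn2, Mybpc3, Ttn and Tpm1. They did not all fall: Actc1 averaged 13656, 16718 and 13540 CPM and Actn2 2088, 2224 and 2202 in Ctr, ISO and ISO/PE. By the calls defined below, 2 of 10 were lower in ISO vs. Ctr, 4 in ISO/PE vs. Ctr and 1 in ISO/PE vs. ISO. Over all tested genes, 2.99%, 10.1% and 2.81% were. The sum of 3 atrial genes (Myl4, Myl7 and Sln) was 17.4 to 356 CPM in every library, highest in Ctr male1. Whole ventricles mix many cell types, so fewer cells of a type and less RNA per cell cannot be told apart in any value below.

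Wnt proteins are secreted lipid-modified ligands that bind Frizzled receptors, seven-pass membrane proteins, together with coreceptors such as LRP5 and LRP6. In the canonical branch this binding stabilizes β-catenin, which enters the nucleus and activates genes with TCF/LEF factors. Axin2 is one of those genes and codes for a scaffold of the complex that degrades β-catenin, so that it limits the pathway that induces it. Other Wnts, among them Wnt5a, act mainly without β-catenin, through Frizzleds with Ror2 or Ryk. Secreted Frizzled-related proteins (sFRPs, including Frzb) carry a domain like the ligand-binding part of Frizzleds, and Wif1 binds Wnt proteins by a domain of its own. The Dickkopf relative Dkk3 is grouped with the antagonists by sequence, but unlike other Dickkopfs is not an established inhibitor of LRP5 and LRP6. In the adult heart the pathway is known for low activity at rest and for renewed activity after injury, chiefly in fibroblasts and other interstitial cells.

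The sequences just upstream of the start site are shown for 4 genes. They are Sfrp2 with the largest difference of the set, Sfrp5, which went the opposite way, the receptor gene Fzd1, and the feedback target Axin2. Sfrp2 and Fzd1 behaved alike, with r = 0.941 between their levels over the 9 hearts. RefSeq promoter entries of build GRCm38.p6 (the build also called mm10) matched 6 of the 10 genes, and the 250 bases before each start were searched on both strands for 5 motifs. The letters searched were TGANTCA for AP-1, AGATAA for the GATA factors, GGAATG for the TEAD factors, the CArG box by its usual pattern for SRF, and CTTTGNT for TCF/LEF. Capitals mark the matches found, none of which overlapped another. The windows are chr3:83766071-83766320 on the plus strand for Sfrp2, chr19:42202253-42202502 on the minus strand for Sfrp5, chr5:4758217-4758466 on the minus strand for Fzd1 and chr11:108920099-108920348 on the plus strand for Axin2, each written 5′ to 3′ on the strand of the gene. The RefSeq genes Sfrp2 and Axin2 extend farther upstream than these starts.
Sfrp2 promoter: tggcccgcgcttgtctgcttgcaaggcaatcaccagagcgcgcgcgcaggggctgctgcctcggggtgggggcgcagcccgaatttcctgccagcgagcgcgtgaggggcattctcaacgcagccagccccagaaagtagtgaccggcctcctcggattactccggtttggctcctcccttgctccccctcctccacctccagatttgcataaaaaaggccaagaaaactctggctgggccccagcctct
Sfrp5 promoter: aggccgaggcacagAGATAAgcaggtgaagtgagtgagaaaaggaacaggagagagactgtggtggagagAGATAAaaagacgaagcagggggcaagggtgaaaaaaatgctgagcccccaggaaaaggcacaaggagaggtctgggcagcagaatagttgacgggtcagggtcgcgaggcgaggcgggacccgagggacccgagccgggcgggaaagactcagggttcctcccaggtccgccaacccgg
Fzd1 promoter: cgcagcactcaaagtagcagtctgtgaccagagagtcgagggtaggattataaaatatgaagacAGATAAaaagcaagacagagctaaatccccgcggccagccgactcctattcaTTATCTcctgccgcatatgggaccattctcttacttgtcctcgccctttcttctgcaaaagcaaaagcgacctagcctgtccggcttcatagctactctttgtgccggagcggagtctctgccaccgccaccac
Axin2 promoter: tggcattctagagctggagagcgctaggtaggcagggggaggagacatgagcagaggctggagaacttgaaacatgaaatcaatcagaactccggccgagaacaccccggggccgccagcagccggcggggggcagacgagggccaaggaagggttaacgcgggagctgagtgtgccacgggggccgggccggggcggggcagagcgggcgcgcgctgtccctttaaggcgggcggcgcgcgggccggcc

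GATA letters were found in the windows of Sfrp5, 236 and 180 bases upstream of the start, and of Fzd1, 186 and 134 bases upstream, while 9.99% of 32841 promoters of the same length held at least one. The windows of Sfrp2, Frzb, Wif1 and Axin2 held none of the 5 motifs. Among all promoters, 6.75% held the AP-1 letters, 12.6% TEAD, 1.47% the SRF site and 16.0% TCF/LEF. A match is a description of letters, and its absence says only that these letters are not in this window. Sfrp2 is the member with the most antisense annotation: 16.1% of its exon bases lie under Gm26771 on the opposite strand, and the counting did not use strand.

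Per kilobase of transcript, Sfrp1 and Sfrp2 were among the 3 highest members in Ctr and stood apart from the others in both treated groups. In Ctr hearts Sfrp1 led with 10.3 ± 2.33 CPM per kb (mean ± SD, n = 3 here and below), followed by Dkk3 with 9.73 ± 2.86 and Sfrp2 with 8.02 ± 1.83, and the ranges of these neighbors overlapped. Axin2 stood lowest with 1.55 ± 0.192 CPM per kb, below Wnt5a with 2.63 ± 0.170, and those ranges did not overlap. In ISO hearts Sfrp2 led with 44.6 ± 10.2 CPM per kb, above Sfrp1 with 29.0 ± 7.21 and Dkk3 with 14.7 ± 4.64, with no overlap between these neighbors. In ISO/PE hearts Sfrp2 (60.8 ± 18.4 CPM per kb) and Sfrp1 (50.0 ± 7.16) overlapped each other and both lay above Frzb (18.2 ± 3.08). Wnt5a, Sfrp5 and Axin2 made up the bottom of the ISO/PE order with 1.85 ± 0.237, 1.26 ± 0.572 and 1.16 ± 0.274 CPM per kb, each overlapping its neighbor.

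A gene was called different when edgeR's quasi-likelihood test gave a Benjamini-Hochberg adjusted p under 0.05 over all tested genes and the log2 fold change exceeded 0.6 in either direction. In ISO vs. Ctr, 5 of 10 members rose (Sfrp1, Sfrp2, Frzb, Fzd1 and Fzd2) and 1 fell (Sfrp5), where 10.4% of all tested genes were called higher and 2.99% lower. In ISO/PE vs. Ctr the same 5 rose and the same 1 fell, beside 16.0% and 10.1% of all genes. In ISO/PE vs. ISO, 2 members were higher (Sfrp1 and Frzb) and 1 lower (Axin2), beside 3.64% and 2.81%. The median log2 fold change of the members was 0.81, 0.94 and 0.14 in the 3 comparisons, and that of all tested genes was -0.01, -0.01 and -0.00. Since the members were chosen with earlier results of these data known, these shares and medians are a description and no test of the set. In every call of a member, all hearts of 1 group lay above all hearts of the other. Comparing females and males separately could therefore only keep the sign, and it is no further evidence.

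**Figure D1:**
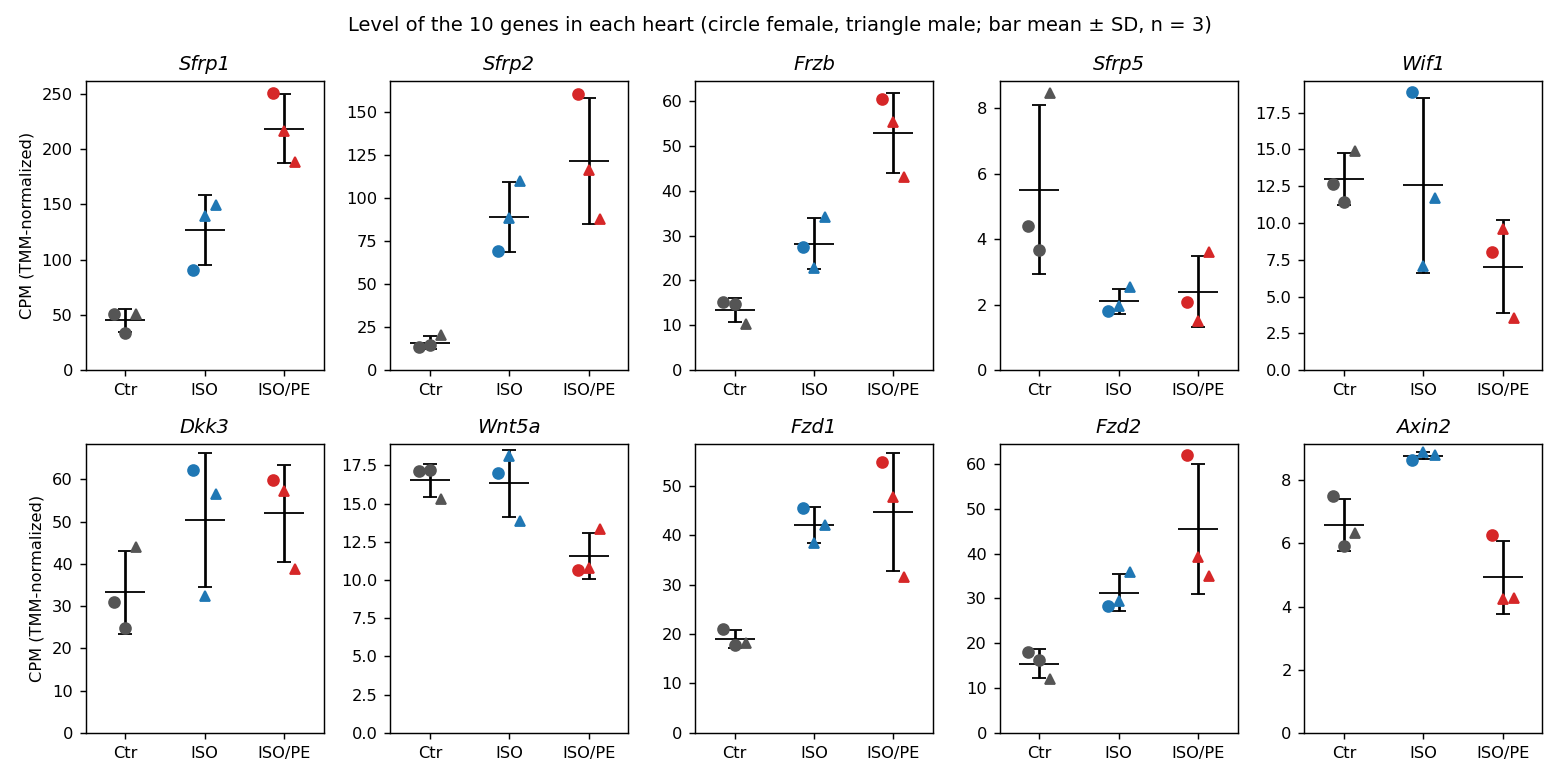
Level of each of the 10 genes in CPM (vertical axes, linear, from 0) in the 9 hearts, by group (horizontal axes); circles are females, triangles males, and bars the mean ± SD of 3 hearts. Sfrp1, Sfrp2, Frzb, Fzd1 and Fzd2 lie above all Ctr hearts in both treated groups, Sfrp5 lies below them, and Axin2 is lower in all 3 ISO/PE hearts than in any ISO heart.

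Sfrp1, Sfrp2 and Frzb, all soluble binders of Wnt ligands, were the antagonists that rose, and Sfrp1 and Frzb were higher again with phenylephrine. Values per heart are in CPM and follow the order female1, female2, male1 for Ctr and female2, male1, male2 for ISO and ISO/PE. Sfrp1 (chr8:23411383-23449632, plus strand) read 50.8, 33.4 and 51.3 in Ctr, 90.8, 139.9 and 149.5 in ISO, and 251, 216 and 188 in ISO/PE hearts. The 3 groups did not overlap, and ISO female2 was the lowest treated heart while ISO/PE female2 was the highest. Sfrp1 rose by 1.49 on the log2 scale (SE 0.21, adjusted p = 0.00047) from Ctr to ISO, by 2.28 (SE 0.21, adjusted p = 1.06e-05) from Ctr to ISO/PE, and was 0.79 (SE 0.20, adjusted p = 0.0238) higher in ISO/PE than in ISO. The last call ended when 1 heart was left out, at 0.59 (adjusted p = 0.0705) without ISO female2, at 0.87 (adjusted p = 0.0508) without ISO male1 and at 0.68 (adjusted p = 0.0922) without ISO/PE female2. Between the single female hearts the log2 difference in CPM was 1.47, and between the means of the 2 male hearts of each group it was 0.48.

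Sfrp2 (chr3:83765750-83774314, plus strand) had the largest difference of the set. It read 13.4, 14.4 and 20.2 CPM in Ctr, 69.0, 88.2 and 109.8 in ISO, and 161, 116 and 87.6 in ISO/PE hearts. All treated hearts lay above all Ctr hearts, and the ISO and ISO/PE hearts overlapped. Against Ctr, Sfrp2 rose by 2.48 on the log2 scale (SE 0.25, adjusted p = 7.85e-05) in ISO and by 2.93 (SE 0.25, adjusted p = 7.38e-06) in ISO/PE hearts. The difference of ISO/PE from ISO was 0.45 (95% interval -0.03 to 0.93, adjusted p = 0.188), with 1.22 between the female hearts and 0.03 between the male means. It was called with libraries scaled to cardiomyocyte markers (0.79, adjusted p = 0.0177), summed fibroblast markers (0.69, adjusted p = 0.0331) or their geometric mean (0.70, adjusted p = 0.0209). These scalings moved the median log2 fold change of all tested genes in ISO/PE vs. ISO to 0.30, 0.25 and 0.25.

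Frzb (chr2:80411970-80447396, minus strand), also called Sfrp3, showed 3 separate groups. It read 15.2, 14.6 and 10.4 CPM in Ctr, 27.5, 22.8 and 34.2 in ISO, and 60.4, 55.3 and 42.9 in ISO/PE hearts. Frzb rose by 1.07 on the log2 scale (SE 0.19, adjusted p = 0.00196) in ISO vs. Ctr, 1.98 (SE 0.19, adjusted p = 1.25e-05) in ISO/PE vs. Ctr and 0.91 (SE 0.17, adjusted p = 0.00803) in ISO/PE vs. ISO. The call in ISO/PE vs. ISO held without each of the 9 hearts in turn, and it was 1.13 between the females and 0.80 between the male means.

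Sfrp5 (chr19:42197971-42202252, minus strand), an sFRP known as an adipokine, went the other way at a much lower level. It read 4.40, 3.66 and 8.46 CPM in Ctr, 1.82, 1.94 and 2.54 in ISO, and 2.07, 1.51 and 3.60 in ISO/PE hearts, from 20 to 83 reads per heart. Both treated groups lay below every Ctr heart, by a small margin for the highest ISO/PE heart, and overlapped each other. Sfrp5 had a log2 fold change of -1.38 (SE 0.37, adjusted p = 0.0196) in ISO vs. Ctr and -1.19 (SE 0.36, adjusted p = 0.0186) in ISO/PE vs. Ctr. Ctr male1, the heart with the most Sfrp5, also had the highest sum of the 3 atrial markers, 356 CPM against 122 and 17.4 in Ctr female1 and female2. Without it the differences were -0.94 (adjusted p = 0.0864) and -0.75 (adjusted p = 0.102), and the part of atrial tissue in this result was not tested. The first call also ended at -1.28 (adjusted p = 0.0524) without ISO female2 and at -1.35 (adjusted p = 0.0606) without ISO male1, the second at -1.09 (adjusted p = 0.0667) without ISO/PE female2 and at -0.96 (adjusted p = 0.0653) without ISO/PE male1. The summed level of 4 adipocyte genes was 6.53 to 16.7 CPM in Ctr, 3.47 to 12.9 in ISO and 12.4 to 18.3 in ISO/PE hearts. The call in ISO/PE vs. Ctr also ended when libraries were scaled to cardiomyocyte markers (-0.60, adjusted p = 0.14) or to the sum of general fibroblast markers (-0.59, adjusted p = 0.121). For ISO/PE vs. ISO the interval of Sfrp5 ran from -0.68 to 1.05.

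Wif1 (chr10:121034004-121100642, plus strand) and Dkk3 (chr7:112116019-112159482, minus strand) passed the test in no comparison. Wif1 read 12.6, 11.4 and 14.9 CPM in Ctr, 18.9, 7.10 and 11.7 in ISO, and 8.004, 9.60 and 3.53 in ISO/PE hearts. Every ISO/PE heart lay below every Ctr heart, and the ISO hearts spanned both groups. Its log2 fold change was -0.04 (SE 0.35, adjusted p = 0.940) in ISO vs. Ctr, -0.88 (SE 0.36, adjusted p = 0.0671) in ISO/PE vs. Ctr and -0.84 (95% interval -1.63 to -0.05, adjusted p = 0.139) in ISO/PE vs. ISO. DESeq2 on the same counts called the second of these, with -0.88 and an adjusted p of 0.031, and so did edgeR without ISO female2, ISO male1 or ISO/PE male1 (adjusted p from 0.034 to 0.0405). Dkk3 read 31.0, 24.9 and 44.0 CPM in Ctr, 62.2, 32.4 and 56.7 in ISO, and 60.0, 57.1 and 38.8 in ISO/PE hearts. All 3 groups overlapped, since Ctr male1 was above ISO male1 and ISO/PE male2. Against Ctr, the log2 difference of Dkk3 in CPM was 1.17 in ISO and 1.11 in ISO/PE females, and -0.04 and 0.10 in males. The log2 fold change of Dkk3 was 0.60 (SE 0.26, adjusted p = 0.114) in ISO vs. Ctr, 0.65 (SE 0.26, adjusted p = 0.0595) in ISO/PE vs. Ctr and 0.04 (95% interval -0.51 to 0.60) in ISO/PE vs. ISO. Without Ctr male1 the first 2 were called, at 0.85 (adjusted p = 0.0493) and 0.90 (adjusted p = 0.0222). The first was also called without ISO male1 (0.82), and the second without ISO female2, ISO male1 or ISO/PE male2 (0.64 to 0.82). DESeq2 also called the second (0.65, adjusted p = 0.0266), as did 2 groups in the fit (0.66, adjusted p = 0.0301), total counts (0.76, adjusted p = 0.0362) and the 3 marker scalings (0.62 to 1.27), and scaling to cardiomyocyte or summed fibroblast markers called the first (0.89 and 0.94).

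**Figure D2:**
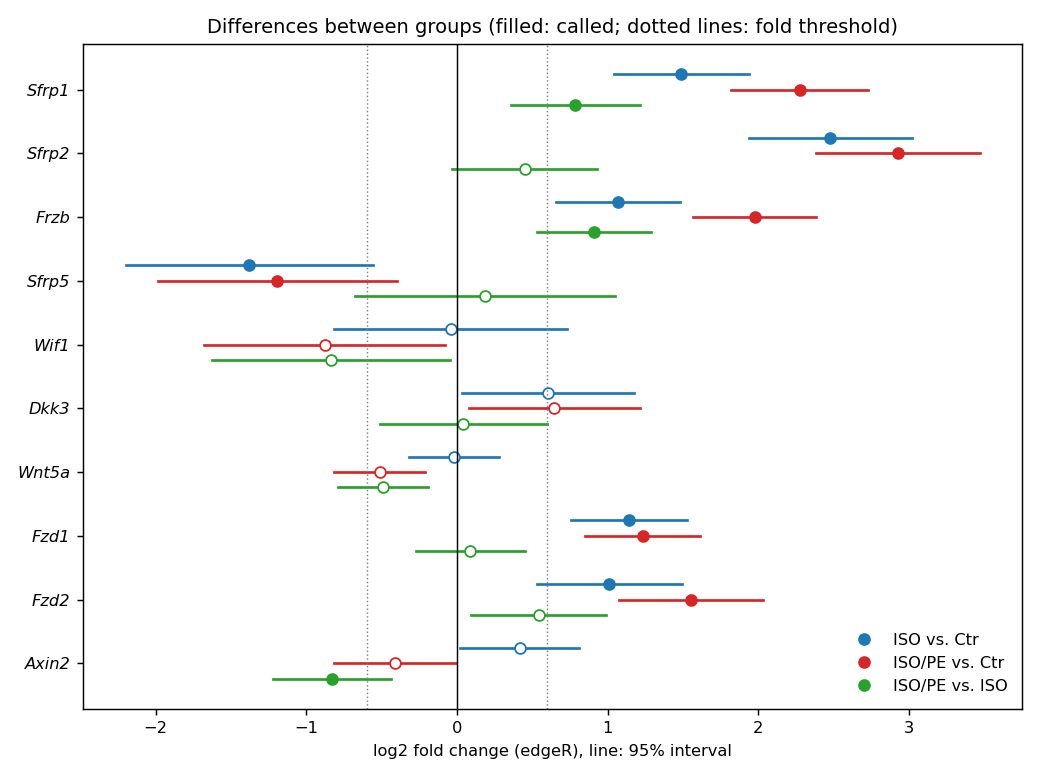
Log2 fold change of each gene (horizontal axis) in ISO vs. Ctr, ISO/PE vs. Ctr and ISO/PE vs. ISO, with its 95% interval as a line; filled points were called and the dotted lines mark 0.6 in either direction. Sfrp2 reaches 2.93 in ISO/PE vs. Ctr, and the green points of Sfrp1, Frzb and Axin2 are the 3 filled ones for ISO/PE vs. ISO.

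Both Frizzled members, Fzd1 (chr5:4753839-4758216, minus strand) and Fzd2 (chr11:102604431-102608058, plus strand), rose under isoprenaline, and neither was called in ISO/PE vs. ISO. Fzd1 read 21.05, 17.7 and 18.3 CPM in Ctr, 45.6, 38.5 and 42.1 in ISO, and 54.7, 47.7 and 31.5 in ISO/PE hearts. All treated hearts lay above all Ctr hearts, and the 3 ISO/PE hearts spread on both sides of the ISO hearts. The log2 fold change of Fzd1 was 1.14 (SE 0.18, adjusted p = 0.000896) in ISO vs. Ctr and 1.23 (SE 0.18, adjusted p = 0.000183) in ISO/PE vs. Ctr. Set against ISO, the ISO/PE hearts gave 0.09 (95% interval -0.27 to 0.45). Fzd2 read 18.1, 16.3 and 11.9 CPM in Ctr, 28.3, 29.5 and 35.9 in ISO, and 62.0, 39.3 and 35.1 in ISO/PE hearts. The treated hearts again lay above all Ctr hearts, and ISO male2 and ISO/PE male2 overlapped. Its log2 fold change was 1.01 (SE 0.22, adjusted p = 0.0063) in ISO vs. Ctr, 1.55 (SE 0.22, adjusted p = 0.000161) in ISO/PE vs. Ctr and 0.54 (95% interval 0.10 to 0.99, adjusted p = 0.0960) in ISO/PE vs. ISO. The difference for Fzd2 was 1.13 between the females and 0.19 between the male means of ISO/PE and ISO, and it was called without ISO/PE male2 (0.70, adjusted p = 0.0407). Fzd2 was also called there with libraries scaled to cardiomyocyte markers (0.89, adjusted p = 0.00912), summed fibroblast markers (0.80, adjusted p = 0.0116) or their geometric mean (0.79, adjusted p = 0.00587). As for Sfrp2, the median of all tested genes under these scalings was 0.30, 0.25 and 0.25.

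Wnt5a (chr14:28504543-28527448, plus strand), the ligand, was called in no comparison. It read 17.1, 17.2 and 15.3 CPM in Ctr, 17.0, 18.1 and 13.9 in ISO, and 10.6, 10.8 and 13.3 in ISO/PE hearts. All ISO/PE hearts lay below all others, while Ctr and ISO overlapped. Its log2 fold change was -0.02 (SE 0.14, adjusted p = 0.928) in ISO vs. Ctr. It was -0.51 (SE 0.14, adjusted p = 0.00977) in ISO/PE vs. Ctr and -0.49 (SE 0.14, adjusted p = 0.0342) in ISO/PE vs. ISO, past the p threshold but short of 0.6, and therefore not called. The sign in ISO/PE vs. Ctr turned (0.086 and 0.089) when libraries were scaled to cardiomyocyte markers or to the sum of general fibroblast markers. Without ISO/PE male2, its highest ISO/PE heart, Wnt5a was called lower in both, at -0.62 (adjusted p = 0.0045) against Ctr and -0.60 (adjusted p = 0.0211) against ISO.

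Axin2 (chr11:108917828-108950783, plus strand), the feedback target, was the one member called lower with phenylephrine. It read 7.48, 5.91 and 6.32 CPM in Ctr, 8.64, 8.88 and 8.81 in ISO, and 6.26, 4.23 and 4.26 in ISO/PE hearts, from 56 to 114 reads. Every ISO heart lay above every Ctr heart and every ISO/PE heart, and ISO/PE overlapped Ctr through ISO/PE female2. Axin2 had a log2 fold change of 0.42 (SE 0.18, adjusted p = 0.114) in ISO vs. Ctr, -0.41 (SE 0.19, adjusted p = 0.0891) in ISO/PE vs. Ctr and -0.83 (SE 0.18, adjusted p = 0.0134) in ISO/PE vs. ISO. The difference was -0.46 between the females and -1.06 between the male means. The last call held without each heart in turn, and ended when libraries were scaled to cardiomyocyte markers (-0.50, adjusted p = 0.124), to the sum of general fibroblast markers (-0.57, adjusted p = 0.0599) or to their geometric mean (-0.58, adjusted p = 0.0414, short of 0.6). The sign in ISO/PE vs. Ctr turned under the first 2 of these, to 0.21 and 0.20, and without ISO/PE female2 that difference was called at -0.63 (adjusted p = 0.0162).

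Of 88 other genes of the pathway, also listed with earlier results of these data known, 73 were in both tables and 64 passed the count filter. Of these, 8 rose and 2 fell in ISO vs. Ctr, beside 10.4% and 2.99% of all tested genes. In ISO/PE vs. Ctr, 7 rose and 6 fell, beside 16.0% and 10.1%, and in ISO/PE vs. ISO, 3 were higher and 4 lower, beside 3.64% and 2.81%. Without ISO male2, 5 rose and 1 fell in ISO vs. Ctr, beside 1185 and 298 of all tested genes. Without Ctr female2, 1 fell there, beside 426. With every heart kept, 1502 of all tested genes rose and 431 fell in that comparison. In ISO/PE vs. ISO, 2 were lower without ISO female2, ISO male1 or ISO/PE male2, beside 201, 274 and 460 of all tested genes. Without ISO/PE female2, 1 was lower, beside 221, where 405 were lower with every heart kept. Their medians were 0.05, -0.10 and -0.17 on the log2 scale, against -0.01, -0.01 and -0.00 for all tested genes. None of the 9 cytoplasmic components (the Dishevelleds, Axin1, Apc, Gsk3a, Gsk3b, Csnk1a1 and Ctnnb1, which codes for β-catenin) and none of the 7 tested nuclear factors was called in any comparison. Short of a call, Ctnnb1 averaged 610, 541 and 510 CPM in Ctr, ISO and ISO/PE, and the TCF gene Tcf7l2 20.9, 18.3 and 15.2, without overlap between groups. Going the other way, all treated hearts of Pygo2 and all ISO hearts of Csnk1a1 lay above Ctr. How often groups separate like this over all genes was not counted.

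Of the 6 other tested targets, 3 (Ccn4, Myc and Nkd2) rose in both treated groups against Ctr, and 3 (Tnfrsf19, Nkd1 and Ccnd1) were called in no comparison. Ccn4, the Wnt1-inducible matricellular protein also called WISP1, read 2.34, 3.19 and 2.35 CPM in Ctr, 5.53, 11.3 and 9.20 in ISO, and 66.6, 44.0 and 42.1 in ISO/PE hearts. The groups did not overlap in any pair. Ccn4 had a log2 fold change of 1.71 (SE 0.31, adjusted p = 0.00243) in ISO vs. Ctr, 4.27 (SE 0.29, adjusted p = 2.27e-06) in ISO/PE vs. Ctr and 2.56 (SE 0.24, adjusted p = 0.00105) in ISO/PE vs. ISO. Myc, which is induced by many signals besides Wnt, rose by 0.97, 2.08 and 1.11 in the same 3 comparisons. Nkd2, a binder and inhibitor of Dishevelled, rose by 1.58 in ISO vs. Ctr and 2.18 in ISO/PE vs. Ctr. Tnfrsf19, Nkd1 and Ccnd1 are named after their values were seen. Tnfrsf19, a receptor of the tumor necrosis factor family, read 5.80, 6.94 and 3.36 CPM in Ctr, 8.49, 7.27 and 6.19 in ISO, and 3.74, 4.23 and 4.85 in ISO/PE hearts. As with Axin2, every ISO/PE heart lay below every ISO heart. The log2 fold change of Tnfrsf19 in ISO/PE vs. ISO was -0.78 (SE 0.24, adjusted p = 0.050016), just outside the threshold, and it was called by DESeq2 (adjusted p = 0.03), by limma-voom (adjusted p = 0.0473), with 2 groups in the fit, and without Ctr female2, Ctr male1 or ISO male2. Nkd1, a relative of Nkd2, was 0.75 (adjusted p = 0.0525) in ISO vs. Ctr and -0.47 (adjusted p = 0.214) in ISO/PE vs. ISO, and its groups overlapped in every pair. The first of these was called by DESeq2 (0.74, adjusted p = 0.0309), with total counts, with 2 groups in the fit, with sex as a term, and without ISO male1 or ISO/PE female2. Ccnd1, the cell cycle gene of cyclin D1, was 0.49 (adjusted p = 0.0631) in ISO vs. Ctr and -0.29 (adjusted p = 0.278) in ISO/PE vs. ISO, and the first was called without Ctr male1 (0.66, adjusted p = 0.0271). For Ccnd1, 23.4% of exon bases lie under a gene on the opposite strand.

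Of the 8 other ligand genes tested, Wnt9b and Wnt10b were called, as was 1 of the 2 genes for ligand export, Wls. Wnt9b read 4.68, 4.50 and 5.51 CPM in Ctr, 33.6, 13.9 and 21.8 in ISO, and 20.3, 14.1 and 15.9 in ISO/PE hearts. All treated hearts lay above Ctr, with log2 fold changes of 2.24 (SE 0.29, adjusted p = 0.000352) in ISO vs. Ctr and 1.78 (SE 0.30, adjusted p = 0.000527) in ISO/PE vs. Ctr, and ISO/PE vs. ISO gave -0.46 (95% interval -1.02 to 0.09). Wnt10b, at only 5 to 33 reads per heart, was higher in ISO vs. Ctr (1.74, adjusted p = 0.0217) and lower in ISO/PE vs. ISO (-1.54, adjusted p = 0.0396), but both calls ended without any 1 of Ctr female1, Ctr female2, ISO male1 and ISO male2, the second also without ISO/PE female2 or ISO/PE male2 (adjusted p from 0.0541 to 0.143). The second call of Wnt10b also ended with 2 groups in the fit (adjusted p = 0.0691) and with summed fibroblast markers (adjusted p = 0.0506), and the first with the replicate block (adjusted p = 0.0592). Wnt9a was 0.49 (adjusted p = 0.0195) and 0.50 (adjusted p = 0.00916) against Ctr in ISO and ISO/PE, short of 0.6, and the first was called without ISO female2 (0.60). Wnt2, Wnt2b, Wnt4, Wnt5b and Wnt11 passed the p threshold in no comparison. Wls, the carrier that takes Wnt proteins to the cell surface, read 85.1, 81.1 and 84.5 CPM in Ctr, 96.6, 110.0 and 112 in ISO, and 145, 127 and 134 in ISO/PE hearts. The 3 groups did not overlap. Wls rose by 0.69 (SE 0.08, adjusted p = 6.12e-05) in ISO/PE vs. Ctr, and was 0.34 (adjusted p = 0.0117) in ISO vs. Ctr and 0.35 (adjusted p = 0.0197) in ISO/PE vs. ISO, short of 0.6.

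Among coreceptors, Ptk7 and Ror2, which act in the branch without β-catenin, rose in both treated groups. Ptk7 rose by 1.02 in ISO vs. Ctr and 1.57 in ISO/PE vs. Ctr. Ror2 rose by 0.90 and 1.60, and its call in ISO/PE vs. ISO (0.70, adjusted p = 0.0466) held only without Ctr female1, Ctr female2 or ISO/PE male2, with adjusted p from 0.0568 to 0.163 when any other heart was left out, and ended with 2 groups in the fit (adjusted p = 0.0505), with sex as a term (adjusted p = 0.054) and with the replicate block (adjusted p = 0.0906). Its call in ISO vs. Ctr ended without Ctr female2, Ctr male1 or ISO male2 (adjusted p from 0.055 to 0.081). Of the other Frizzleds, Fzd3 to Fzd9, none was called. Fzd6 was -0.37 (adjusted p = 0.00242) in ISO/PE vs. Ctr and -0.31 (adjusted p = 0.0230) in ISO/PE vs. ISO, short of 0.6, and the first of these turned to 0.22 and 0.24 under cardiomyocyte marker scaling and scaling to summed fibroblast markers.

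Further genes fell. Sost, the secreted LRP5 and LRP6 antagonist sclerostin, fell by 1.68 (SE 0.30, adjusted p = 0.00199) in ISO vs. Ctr and by 1.98 (SE 0.30, adjusted p = 0.000276) in ISO/PE vs. Ctr. Lgr6, a receptor for R-spondins, fell by 0.67 and 1.28 against Ctr in ISO and ISO/PE and by 0.62 in ISO/PE vs. ISO, and the last call ended when ISO female2, ISO male1 or ISO/PE female2 was left out (adjusted p up to 0.0547), while that in ISO vs. Ctr fell short of 0.6 without Ctr female2 (-0.59) or ISO male2 (-0.55). Under cardiomyocyte and summed fibroblast marker scaling Lgr6 was -0.37 and -0.33 in ISO vs. Ctr and -0.32 and -0.36 in ISO/PE vs. ISO, with no call, and the latter call also ended with the geometric mean of those markers (-0.36), total counts (-0.56) and the replicate block (adjusted p = 0.0542). Of 10 planar polarity genes, none was called in ISO vs. Ctr and 4 fell in ISO/PE vs. Ctr: Celsr3 by 1.58, Celsr2 by 1.13, Prickle1 by 1.04 and Celsr1 by 0.76, where 10.1% of all genes were called lower. Of these calls only that of Celsr3 remained when libraries were scaled to cardiomyocyte markers, with -0.53 for Celsr2, -0.44 for Prickle1 and -0.17 for Celsr1, or to summed fibroblast markers, with -0.52, -0.42 and -0.15. Celsr3 stood at a low level, with a mean of 2.09 CPM in Ctr and 0.703 in ISO/PE hearts and 0.323 in the lowest ISO/PE heart. In ISO/PE vs. ISO, Celsr2 (-0.75, adjusted p = 0.0248) and Celsr1 (-0.73, adjusted p = 0.00988) were lower, and the call of Celsr2 ended without ISO female2, ISO male1, ISO/PE female2 or ISO/PE male2 (adjusted p up to 0.0990). Both of these calls ended under scaling to cardiomyocyte markers, summed fibroblast markers or their geometric mean, at -0.46 to -0.50 for Celsr2 (adjusted p from 0.0963) and -0.44 to -0.48 for Celsr1 (adjusted p from 0.0604). Apcdd1, a membrane inhibitor of Wnt signaling, rose by 0.89 (adjusted p = 0.0205) in ISO vs. Ctr, and this call ended without Ctr female1, Ctr female2, ISO female2 or ISO male2 (adjusted p up to 0.0876), with the replicate block (adjusted p = 0.104) and, short of 0.6, with the geometric mean of fibroblast markers (0.58).

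**Figure D3:**
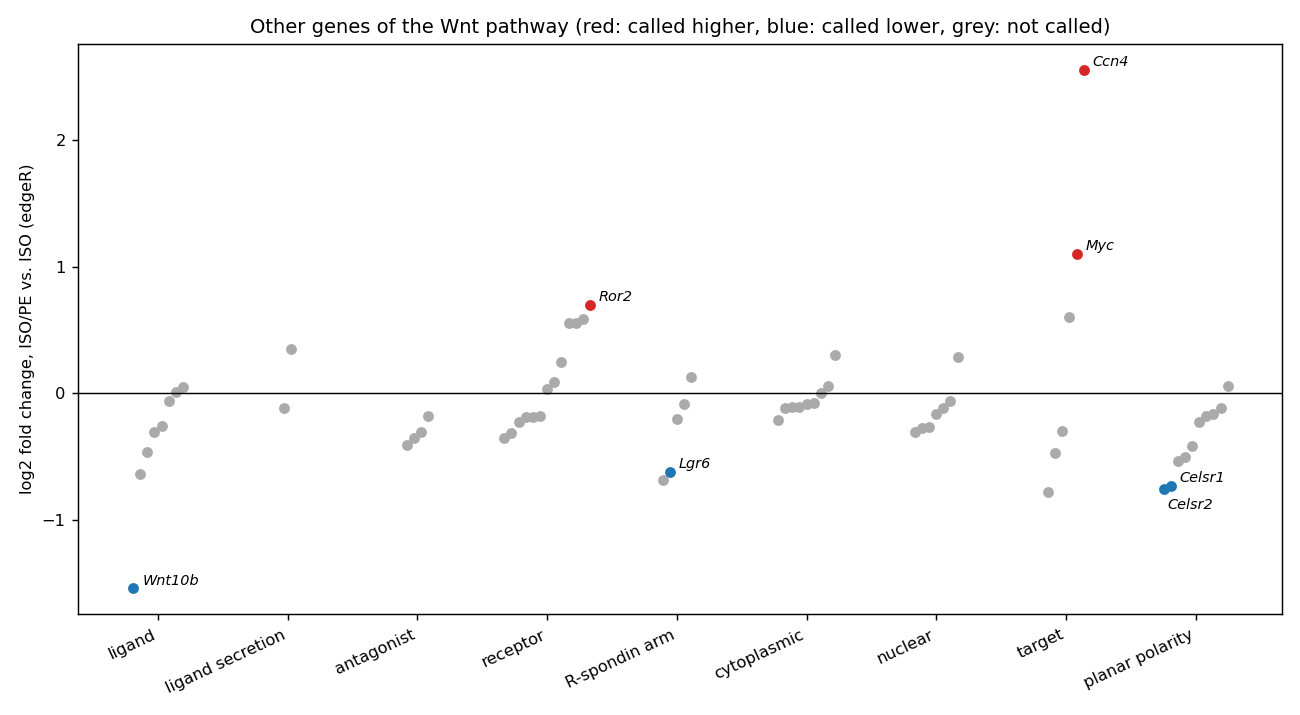
Log2 fold change in ISO/PE vs. ISO (vertical axis) of the 64 other pathway genes tested, ordered within each role (horizontal axis); red points were called higher, blue lower and grey not called. Ccn4 at 2.56 and Wnt10b at -1.54 stand farthest from 0, and no cytoplasmic or nuclear gene is colored.

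The members changed the makeup of their families. Fzd1 and Fzd2 together made 18.8 ± 3.08% of the summed CPM per kb of the 10 Frizzled genes in Ctr hearts, against 33.2 ± 2.70% in ISO and 41.4 ± 6.98% in ISO/PE hearts, as a description without a test. Fzd4 made 31.4 ± 3.02%, 27.1 ± 2.95% and 22.05 ± 5.65% in the same groups, while its own level in CPM overlapped in every pair of groups. The share of Fzd1 plus Fzd2 overlapped between ISO (up to 36.0%) and ISO/PE hearts (from 34.8%). The summed level of the 5 sFRP genes (Sfrp4 included) was 26.0 ± 4.03 CPM per kb in Ctr hearts, against 85.0 ± 18.4 in ISO and 131 ± 28.1 in ISO/PE. The summed level of the 11 Wnt ligand genes was 13.6 ± 0.733, 21.7 ± 0.993 and 17.8 ± 1.004 CPM per kb, with no overlap between any pair of groups. Wnt9b alone made 7.94 ± 0.432%, 23.3 ± 9.04% and 20.7 ± 3.26% of that sum in Ctr, ISO and ISO/PE hearts. sFRP transcripts stood to Wnt transcripts as 1.90 ± 0.204 in Ctr hearts, against 3.93 ± 0.909 in ISO and 7.33 ± 1.56 in ISO/PE.

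**Figure D4:**
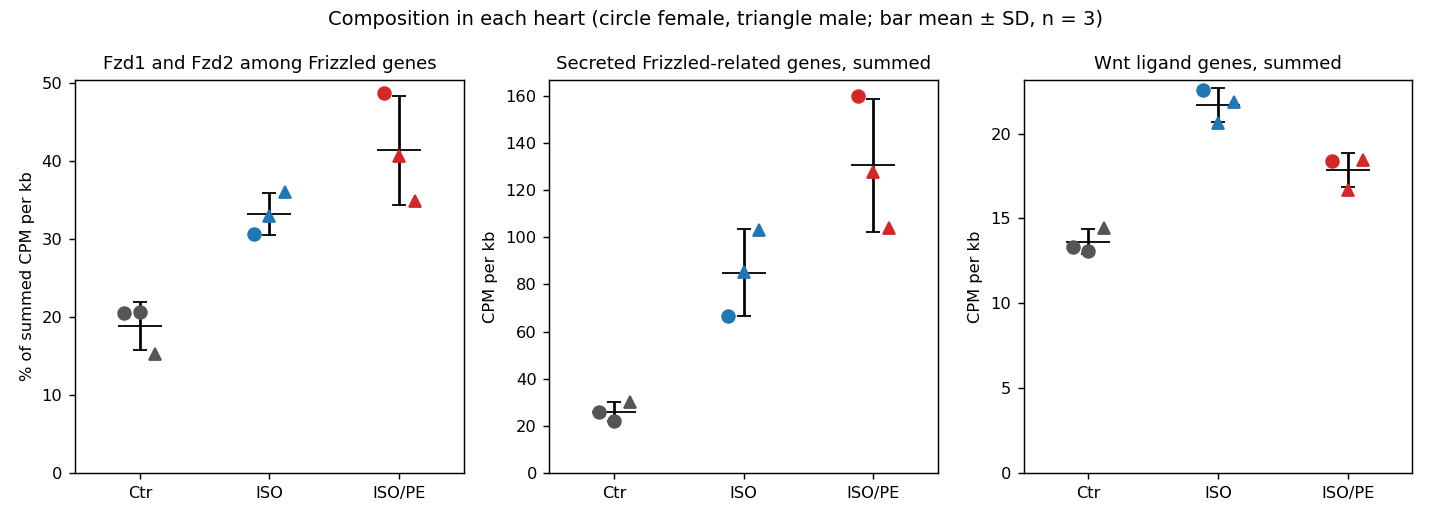
Share of Fzd1 plus Fzd2 in the summed level of the 10 Frizzled genes (left, percent), summed level of the 5 sFRP genes (middle) and of the 11 Wnt ligand genes (right, both in CPM per kb) in each heart; circles are females, triangles males, bars mean ± SD of 3 hearts. The sFRP sum is 26.0 in Ctr and 131 in ISO/PE, and the Wnt sum is highest in ISO at 21.7.

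Markers of activated fibroblasts moved with these genes. The summed level of 8 genes of activated fibroblasts (Postn, Cilp, Thbs4, Comp, Cthrc1, Ltbp2, Fn1 and Acta2) was 479 to 515 CPM in Ctr, 2055 to 4212 in ISO and 6469 to 8678 in ISO/PE hearts, and 6, 7 and 7 of the 8 were called higher in the 3 comparisons in the order used above. ISO female2 and ISO/PE female2 were the lowest and the highest treated heart of that sum, as they were for Sfrp1 and Fzd2. The 7 general fibroblast genes (Pdgfra, Tcf21, Dcn, Lum, Dpt, Ddr2 and Gsn) summed to 4604 to 5420 CPM in Ctr, 3576 to 4460 in ISO and 3151 to 3451 in ISO/PE, with Gsn giving 59.7 to 64.1% of the sum in Ctr and 29.2 to 45.4% in treated hearts. Without Gsn the sum was 1654 to 2166 CPM in Ctr, 2298 to 2650 in ISO and 2190 to 2351 in ISO/PE hearts. With libraries scaled to the geometric mean of the 7 genes, so that each had the same weight, Sfrp1, Sfrp2, Frzb, Fzd1 and Fzd2 were still called higher against Ctr in both treated groups, at 1.23, 2.19, 0.78, 0.86 and 0.73 under ISO and 2.26, 2.89, 1.95, 1.21 and 1.52 under ISO/PE, and Sfrp1, Sfrp2, Frzb and Fzd2 were called higher in ISO/PE vs. ISO. This scaling called 1014, 2187 and 1630 of all 14426 tested genes higher in the 3 comparisons. It moved the median of all genes in ISO/PE vs. ISO to 0.25. Sums of 7 epicardial genes (29.7 to 38.0, 64.5 to 78.2 and 111 to 126 CPM in Ctr, ISO and ISO/PE) and of 6 macrophage genes (294 to 370, 634 to 957 and 871 to 1130 CPM) also moved with the groups, though only 1 of 7 epicardial genes (Aldh1a2) was called in each comparison. Aldh1a2 gave 15.1, 44.2 and 96.5 CPM of mean epicardial sums of 33.6, 69.5 and 118, while Wt1 averaged 11.1, 12.1 and 10.7 CPM. The part of these cell types in the members' differences was not tested.

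The members' patterns over the 9 hearts are given as a description, since all share the same libraries and groups. Pearson's r of log2 CPM was 0.959 between Sfrp1 and Sfrp2, 0.963 between Frzb and Fzd2, 0.926 between Sfrp1 and Frzb and 0.915 between Fzd1 and Fzd2. Sfrp5 ran opposite to Fzd1 (r = -0.855), and Axin2 had r between -0.351 and 0.605 with every other member. Over all tested genes, those most like Sfrp1 were Mmp14 (r = 0.997), a membrane-bound matrix metalloproteinase, Tmem43 (r = 0.996) and Aspn (r = 0.995), the small matrix proteoglycan asporin. Those most like Sfrp2 were Tacc3 (r = 0.999) and Knstrn (r = 0.997), both proteins of the mitotic spindle, and Mtch1 (r = 0.996), a mitochondrial membrane protein.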

How the data were processed

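Ventricular mRNA of 9 mice (3 Ctr, 3 ISO, 3 ISO/PE) was sequenced from libraries of polyadenylated RNA. The authors aligned reads to mm10 with STAR and counted exon reads per RefSeq transcript without regard to strand, and deposited these raw counts in 2 tables (per the labels and the study's methods; the submitters' processing notes name STAR, featureCounts and DESeq2, and no source used here gave their versions). The tables also hold normalized values and the authors' fold changes and p-values, which were not used.

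The tables were joined on transcript (29889 shared, 544 and 110 in 1 table only, ISO counts equal in both), and the transcript of highest total count was kept per symbol. Both tables hold no transcript with a sum below 21 counts. The deposited counts were fitted in 1 model over 9 hearts with edgeR 4.0.16 (R 4.3.3, limma 3.58.1, TMM normalization, quasi-likelihood test, filterByExpr with a minimum count of 10 and a minimum total of 15). Calls needed an adjusted p under 0.05 and a log2 fold change beyond 0.6, the thresholds of the study. CPM values are TMM-normalized, and per kb uses the transcript length in the tables. Intervals and p-values measure the spread between these mice. The fit was tested on simulated data.

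Named were the 10 members, the called genes of the pathway list (in the comparisons with Ctr at least the 3 with the largest difference per direction), its ligands and Frizzleds, and the 3 genes most like each of Sfrp1 and Sfrp2. The members and lists were chosen with earlier results of these data known. Alternatives were other scalings, no filter, DESeq2 1.42.0, limma-voom, 2 groups per fit, sex or replicate label as a term, the longest transcript, adjusted p alone, and each heart left out in turn. Scaling to general fibroblast markers, by sum and by geometric mean, was added after seeing the data.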

Additional observations from a re-analysis of the deposited data

How the results depend on the processing

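Over 22 alternatives, 588 of 660 values of the members kept direction and call, 15 lost a call, 34 gained one and 23 turned sign, and of 990 values of other named pathway genes 887 kept both, 59 lost a call, 39 gained one and 5 turned sign. Scaling to cardiomyocyte markers, to summed fibroblast markers and to their geometric mean moved the median log2 fold change of all genes to 0.29, 0.34 and -0.29 in ISO vs. Ctr, 0.59, 0.60 and -0.04 in ISO/PE vs. Ctr and 0.30, 0.25 and 0.25 in ISO/PE vs. ISO, and total count scaling to 0.05, 0.11 and 0.05. The higher calls made up 77.7%, 61.2% and 56.5% of all calls in the 3 comparisons, and 94.8%, 95.8% and 93.2% under cardiomyocyte marker scaling, 96.0%, 96.0% and 90.8% with summed fibroblast markers, 35.6%, 57.6% and 90.7% with their geometric mean and 83.5%, 72.2% and 66.9% with total counts. Under cardiomyocyte scaling the 64 other pathway genes tested gave 16 higher and 1 lower in ISO vs. Ctr, 25 and 3 in ISO/PE vs. Ctr and 9 and 1 in ISO/PE vs. ISO, and the members 0 lower in ISO/PE vs. Ctr and 4 higher and 0 lower in ISO/PE vs. ISO. Of all 14426 tested genes, this scaling called 2812, 6866 and 2061 higher and 154, 299 and 150 lower in the 3 comparisons. Summed fibroblast markers gave 17 and 1, 27 and 3, and 7 and 0 for the other genes, and the same member counts of 0, 4 and 0. Over all tested genes they gave 3344, 6966 and 1564 higher and 139, 289 and 158 lower. The geometric mean of fibroblast markers gave 6 other genes lower in ISO vs. Ctr, 7 higher and 1 lower in ISO/PE vs. ISO, and 2 members lower in ISO/PE vs. Ctr, 4 higher and 0 lower in ISO/PE vs. ISO. Over all tested genes it gave 1833 lower in ISO vs. Ctr, 1608 lower in ISO/PE vs. Ctr, and 1630 higher and 167 lower in ISO/PE vs. ISO. Total counts gave 11 other genes higher in ISO/PE vs. Ctr and 5 in ISO/PE vs. ISO, beside 2730 and 646 of all tested genes. DESeq2, 2 groups in the fit and adjusted p alone each gave 2 members lower in ISO/PE vs. Ctr, and adjusted p alone gave 2 members lower in ISO/PE vs. ISO, 15 other genes lower in ISO/PE vs. Ctr and 6 higher in ISO/PE vs. ISO. Over all tested genes these settings gave 1405, 1373 and 3269 lower in ISO/PE vs. Ctr. Adjusted p alone gave 1076 higher and 1003 lower in ISO/PE vs. ISO.

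Deviations from the group mean in same-labelled hearts of ISO and ISO/PE had r = -0.017, -0.078 and -0.149. Between same-labelled hearts of Ctr and a treated group, r ran from -0.014 to 0.205. Whether the labels pair hearts cannot be told from so few hearts. The replicate block lowered the members called higher in ISO/PE vs. ISO to 1 (Frzb), and all tested genes called higher there from 525 to 371. Wif1 in ISO vs. Ctr turned to 0.017 with total counts, 0.26 and 0.27 with cardiomyocyte and summed fibroblast markers, 0.019 with sex and 0.12 with the replicate block, and Wnt5a there to 0.038, 0.28, 0.33 and, with the block, 0.0094. Under cardiomyocyte and summed fibroblast markers, ISO/PE vs. Ctr turned to 0.086 and 0.089 for Wnt5a, 0.21 and 0.20 for Axin2 0.22 and 0.24 for Fzd6 and 0.27 and 0.26 for Tnfrsf19. Leaving out 1 heart at a time gave ranges of -0.46 to 0.22 for Wif1 and -0.12 to 0.084 for Wnt5a in ISO vs. Ctr, -0.029 to 0.36 for Ccnd1 in ISO/PE vs. Ctr, and -0.19 to 0.22 for Dkk3, -0.086 to 0.28 for Fzd1 and -0.22 to 0.42 for Sfrp5 in ISO/PE vs. ISO. It also gave 0 to 1 members lower and 5 to 10 other genes higher and 1 to 3 lower in ISO vs. Ctr, 0 to 2 members lower in ISO/PE vs. Ctr, and 1 to 3 members higher, 1 to 2 lower and 1 to 5 other genes lower in ISO/PE vs. ISO. Over all tested genes, leaving out 1 heart gave 1185 to 1620 higher and 298 to 517 lower in ISO vs. Ctr. It gave 1262 to 1571 lower in ISO/PE vs. Ctr, and 279 to 654 higher and 201 to 547 lower in ISO/PE vs. ISO. Causes were not tested.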

Other observations

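Pathway genes under the count filter were not tested, and their reads are given in the order used above. Wnt1 had no read in the 3 Ctr hearts, 10, 8 and 7 reads in ISO and 5, 7 and 8 in ISO/PE hearts. Set against an assumed floor of 3 reads over the Ctr group, the observed Wnt1 sums of 25 reads in ISO and 20 in ISO/PE were 6.90-fold and 4.91-fold higher. The floor allows for counting error in Ctr only. Counting error of the treated sums and the spread between mice are not included. Sfrp4, another sFRP gene, had 2 reads in each Ctr heart, 15, 6 and 19 in ISO and 8, 7 and 6 in ISO/PE hearts. Fzd10 had 0, 1 and 4 reads in Ctr, 16, 7 and 6 in ISO and 2, 2 and 1 in ISO/PE hearts, so that each ISO heart lay above the other 6. These 3 genes were singled out after their values were seen.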
